A study of Rattus norvegicus with 9 samples.

Results

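Messenger RNAs of chemokines, interleukins, the tumour necrosis factor (TNF) family and their receptors were examined in a resistance artery of the rat hind limb, the first side branch of the saphenous artery, in 2 models of hypertension. The members were all probesets of the Affymetrix RAE230A array with 1 gene symbol that starts with Ccl, Cxcl, Ccr, Cxcr or Il and a number, or with Cx3c or Tnf (including Tnfsf and Tnfrsf), which gave 114 of 15923 probesets and 93 genes. The rule also takes in Tnfaip genes, which were named for their induction by TNF, and Il18bp, a secreted antagonist. A further 2 probesets fit these symbols but carry several symbols each, and they are not described.

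SHR arteries came from spontaneously hypertensive rats, an inbred strain, without treatment. ACTH arteries came from Wistar-Kyoto (WKY) rats given adrenocorticotropic hormone, which drives the adrenal cortex to release corticosteroids, by the subcutaneous route for 4 weeks. The labels give its dose as 0.1 mg/kg/day, and the study's methods give another. WKY arteries came from untreated Wistar-Kyoto rats, the normotensive strain that also carries the ACTH treatment. All rats were male and 16 weeks old. Each group had 3 arrays, and RNA of 2 to 3 rats was pooled for each array, so that n counts pools and not rats.

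Chemokines are small secreted proteins that direct the movement of leukocytes through receptors coupled to G proteins, and they are named CC, CXC or CX3C after the spacing of their first cysteines. Interleukins act through cytokine receptors that use JAK kinases and STAT factors, or, in the interleukin-1 and interleukin-17 families, through adaptors that lead to NF-kappaB. TNF ligands bind receptors that recruit TRAF adaptors and death domain proteins. In an artery, smooth muscle, endothelium, adventitial fibroblasts and resident macrophages all can make or sense such signals.

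Promoter sequences show what lies before the start of the 2 genes with called changes that were found in the RefSeq promoter table (GRCr8 assembly), Cxcl12 and Tnfrsf1a. The 250 bases before the start are given 5′ to 3′, and capitals mark the letters GGGCGG (a GC box) on either strand. Cxcl12 lies at chr4:152060531-152060780 on the plus strand and Tnfrsf1a at chr4:159836869-159837118 on the plus strand:
Cxcl12: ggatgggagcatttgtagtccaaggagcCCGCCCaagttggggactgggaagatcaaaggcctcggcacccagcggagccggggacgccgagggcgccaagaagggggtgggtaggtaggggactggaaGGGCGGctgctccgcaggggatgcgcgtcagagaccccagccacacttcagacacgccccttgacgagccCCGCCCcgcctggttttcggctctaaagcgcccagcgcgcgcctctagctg
Tnfrsf1a: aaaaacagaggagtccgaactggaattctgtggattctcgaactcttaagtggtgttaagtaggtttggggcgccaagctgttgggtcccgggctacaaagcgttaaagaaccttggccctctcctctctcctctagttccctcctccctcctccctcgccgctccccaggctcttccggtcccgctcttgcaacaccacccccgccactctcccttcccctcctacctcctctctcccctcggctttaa
Cxcl12 held 3 GC boxes, the first bases of which lie at -222, -121 and -51 from the start, and 67.6% of its window was G or C, beside 57.6% for Tnfrsf1a. Tnfrsf1a held no GGGCGG, and neither window held TATAAA, GGGNNNNNCC (a loose NF-kappaB pattern), TTCNNNGAA or TTCNNNNGAA (STAT patterns) or AGAACA (a glucocorticoid receptor pattern), each searched on both strands. Of all 33469 promoters that RefSeq gives here, 30.5% held GGGCGG, 12.9% TATAAA, 42.3% GGGNNNNNCC, 7.67% TTCNNNGAA, 6.25% TTCNNNNGAA and 17.5% AGAACA in the same window. Among the 22 promoters found for 21 of the 30 member genes tested here, GGGCGG was in 10, GGGNNNNNCC in 9, TATAAA in 5, AGAACA in 3, TTCNNNNGAA in 2 and TTCNNNGAA in 1. The shorter STAT pattern was in the promoter of Tnfrsf12a and the longer in those of Il18bp and Il23a, while AGAACA was in those of Il15, Il18bp and Il2rg.

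Signals are MAS5 intensities on a linear scale, scaled by the authors to a target of 150 on every array, with medians of 52.3 to 58.1. A probeset was tested when its third-highest signal of the 9 arrays was at least 44, which 9125 probesets met. A member probeset passed in 35 of 114 cases (30.7%), against 57.5% of all probesets that are no Affymetrix controls. The same 35 probesets, of 30 genes, were those with a mean signal above 44 in any group. Log2 signals were compared with limma, and a change is called when its adjusted p is under 0.05 over all 9125 probesets. A change is given with its SE and a mean signal with its SD (n = 3 arrays).

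Smooth muscle markers were bright on all arrays (6 of 6 genes passed, summed signal 17317 to 19175 in SHR, 16445 to 18229 in ACTH and 16440 to 19214 in WKY). Of these genes Des, which encodes desmin, was called lower in SHR than in WKY (-1.45 on the log2 scale, adjusted p = 0.00717) and than in ACTH (-1.25, 0.0138). The arrays were scanned on 4 days: SHR 1 and SHR 2 with WKY 2, SHR 3 with the 3 ACTH arrays, and WKY 1 and WKY 3 each alone. ACTH and WKY arrays share no day, so a difference between them with day as a block rests on the SHR arrays that link the days. The GAPDH 3′/5′ ratio, a measure of RNA length, was 3.57 to 5.16 in SHR, 3.67 to 4.52 in ACTH and 4.91 to 5.99 in WKY.

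Most members were dim in the vessel wall. The 79 probesets that did not pass stand for 63 genes with no tested probeset and for other probesets of Cxcl12 and Tnfaip2, their group means reached 39.7 at most, and 73 of them stayed below 44 on every array. The 4 just inside the limit by their highest group mean were Il17re 1373928_at (44.6), Ccl4 (44.9), Il17b (45.6) and Il15 (46.8), and the 4 just outside were Cxcl9 (39.7), Cxcr4 1389244_x_at (39.4), Ccr1 (38.9) and Tnfaip6 (36.8). Interleukins and their antagonists passed in 8 of 23 genes, interleukin receptors in 8 of 20, CC chemokines in 2 of 11, CXC and CX3C chemokines in 4 of 11, TNF ligands in 2 of 5, TNF receptors in 3 of 9 and TNF-induced proteins in 3 of 4. Chemokine receptors passed in 0 of 10 genes.

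**Figure D1:**
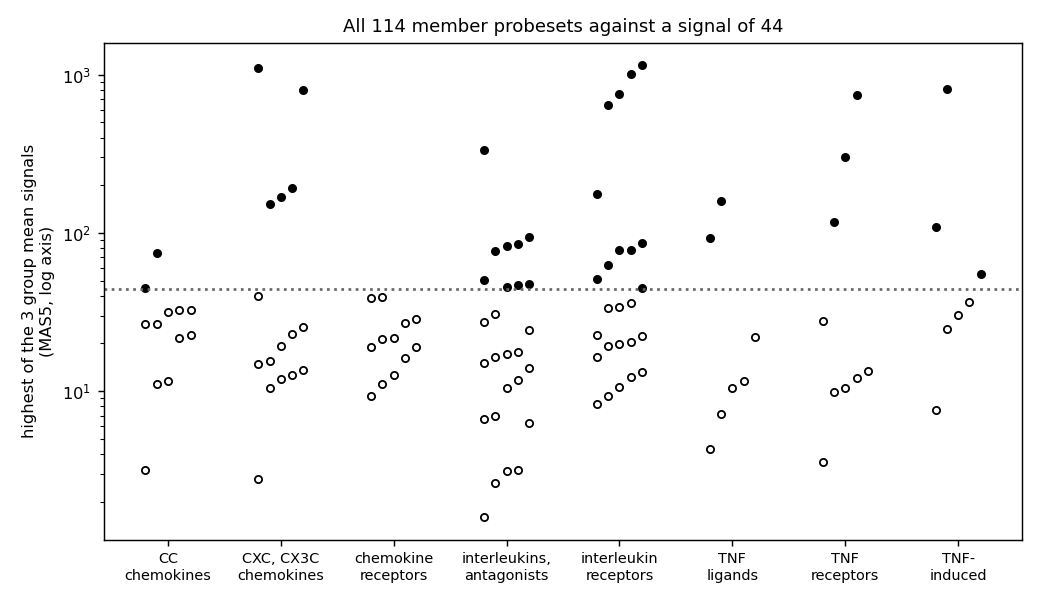
Highest of the 3 group mean signals (log axis) of each of the 114 member probesets, by role; filled points exceed 44 (dotted line) and were tested. No chemokine receptor lies above 44, while CXC and CX3C chemokines have 5 probesets above it and interleukin receptors 11.

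The classical acute inflammatory cytokines lay among the dim probesets. Il6, which drives the acute phase response, averaged 6.99 in SHR, 7.34 in ACTH and 11.7 in WKY, Il1b, a product of activated macrophages, 24.4, 17.4 and 19.9 in the same groups, and neither of the 2 Tnf probesets had a group mean above 11.6. Ccl2, which attracts monocytes, read 68.9, 23.8 and 4.90 in SHR, 36.5, 30.5 and 22.2 in ACTH and 2.56, 20.0 and 4.56 in WKY. The SHR arrays spread most widely for this gene, and its SHR mean rests on SHR 1. Ccr1, a receptor for inflammatory CC chemokines, read 24.8, 15.8 and 8.50 in SHR, 45.9, 49.5 and 21.2 in ACTH and 11.3, 21.9 and 13.3 in WKY, and Cxcr4, the receptor of Cxcl12, read 7.24, 8.10 and 12.1 in SHR, 34.3, 36.9 and 47.1 in ACTH and 7.03, 14.5 and 2.21 in WKY with 1389244_x_at. For this Cxcr4 probeset every ACTH array lay above every SHR and WKY array. The other 2 Cxcr4 probesets were dim too and did not repeat this separation. Probeset 1373661_a_at averaged 28.4 in SHR, 23.7 in ACTH and 15.6 in WKY, and ACTH overlapped with both other groups. Probeset 1370097_a_at averaged 8.40, 16.2 and 4.59 in the same order, with ACTH above every WKY array but overlapping with SHR. Cx3cr1, the fractalkine receptor, Tnfsf4, a costimulatory ligand, and Ccl22, a chemokine for T cells, stayed below 44 on every array. The dim probesets were left out of the test. When all probesets other than controls were fitted, limma called 0 of the 114 members in each comparison. In that fit 12 members had an unadjusted p under 0.05 in SHR against WKY, 10 in ACTH against WKY and 17 in SHR against ACTH. The share of all probesets in that fit is not given here, so these counts are no result about the members alone.

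In SHR against WKY, Ccl11 rose and Tnfrsf1a fell. These were 2 of the 35 member probesets tested, beside 2.05% of all 9125 probesets called in that comparison, and 8 members had an unadjusted p under 0.05 (16.4% of all probesets did). In ACTH against WKY 1 of 35 was called, Il1r2, which rose, beside 1.21% of all probesets, and 6 had an unadjusted p under 0.05 (12.5% of all). In SHR against ACTH 3 of 35 were called, beside 3.4% of all probesets: a Cxcl12 probeset was higher, and Il17re and Il1r2 were lower. In that comparison 9 members had an unadjusted p under 0.05 (17.2% of all). With scan day as a block limma called 0 members in each of the 3 comparisons (7, 6 and 8 at an unadjusted p under 0.05, in the order above). The share of all 9125 probesets with this block is not given here, so these 3 counts are no result about the members alone. The first and second of the 3 comparisons share the WKY arrays, and each shares a group with the third.

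Over the 30 genes, with the brightest probeset for each, the median log2 change was 0.090 for SHR against WKY, 0.22 for ACTH against WKY and -0.14 for SHR against ACTH. The same medians over 6918 genes were -0.0017, 0.024 and -0.016. Changes lay above 0 in 18 of the 30 genes for SHR against WKY, in 25 for ACTH against WKY and in 9 for SHR against ACTH. Of all 6918 genes, 3444, 3750 and 3303 had changes above 0 in the same order. With scan day as a block the first median became -0.083 and the second -0.010. Since a gene could pass the limit through 1 group alone, these medians describe the genes that passed and not all 93.

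Arrays of the groups did not overlap for 6 of 35 probesets that were higher in SHR than in WKY (9.7% of all probesets) and for 3 that were lower (9.67% of all). ACTH arrays lay wholly above WKY arrays for 3 (10.7% of all) and wholly below for 2 (9.76% of all). SHR arrays lay wholly above ACTH arrays for 4 (11.7% of all) and wholly below for 7 (13.3% of all). Of these 7, 5 were among the 11 interleukin receptor probesets, 2 of them of 1 gene. Another of these 5, Il1r2, passed the limit only through ACTH, the group in which it is high.

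**Figure D2:**
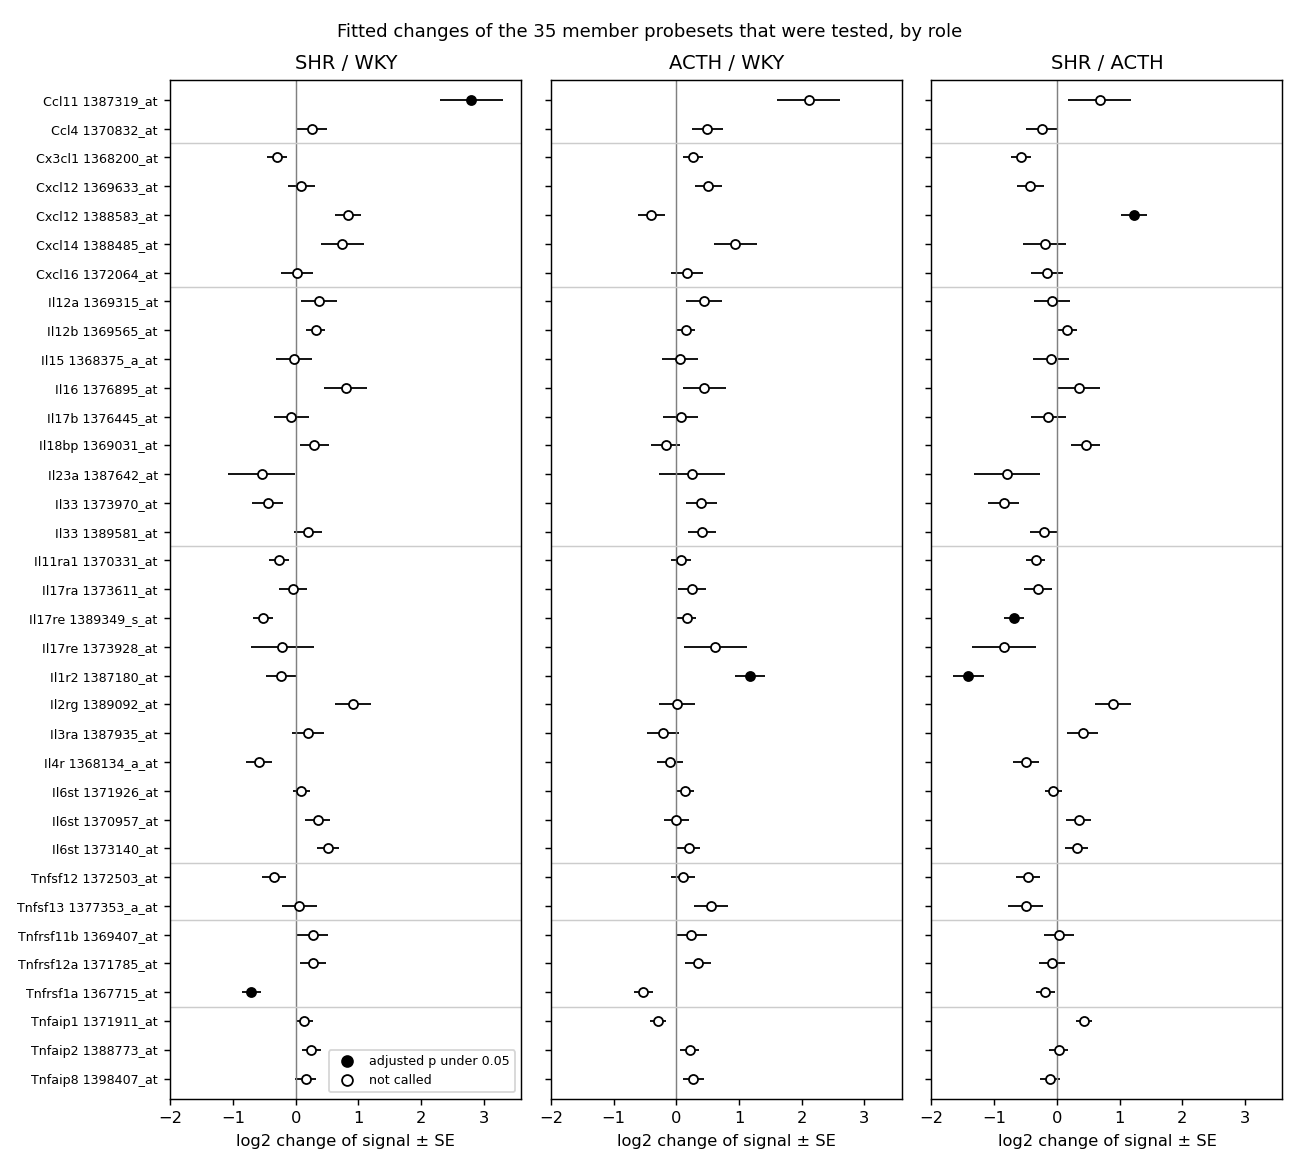
Fitted log2 change ± SE of the 35 tested member probesets for SHR over WKY, ACTH over WKY and SHR over ACTH (n = 3 arrays per group), grouped by role from CC chemokines at the top to TNF-induced proteins; filled points have an adjusted p under 0.05. The Ccl11 changes against WKY (2.80 and 2.11) rest on WKY signals below 44 and were 0.73 and 0.30 with such signals raised to 44, and Il1r2 lies to the right only in the ACTH over WKY panel (1.18).

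Ccl11, or eotaxin, is a CC chemokine that attracts eosinophils through the receptor Ccr3 and is made by fibroblasts and smooth muscle among other cells. Its signals were 52.2, 91.2 and 81.4 in SHR, 25.6, 59.2 and 61.5 in ACTH and 6.05, 24.9 and 7.62 in WKY. Every SHR and every ACTH array lay above every WKY array, while SHR and ACTH overlapped. The log2 change was 2.80 ± 0.51 in SHR against WKY (adjusted p = 0.0192), 2.11 ± 0.51 in ACTH against WKY (0.0951) and 0.69 ± 0.51 in SHR against ACTH (0.54). WKY signals all lay below 44, where MAS5 values are uncertain. The probeset thus passed the limit only through SHR and ACTH arrays, the groups in which it is higher than in WKY. When all probesets other than controls were fitted with limma, the SHR against WKY change of 2.80 was not called (adjusted p = 0.146). With signals below 44 raised to 44, Ccl11 was at least 1.66-fold higher in SHR than in WKY, a log2 difference of 0.73 that is no longer called (adjusted p = 0.0986), and the difference of ACTH against WKY was 0.30 (0.614). WKY 2 lay above the other WKY arrays, and without it the change was 3.42 (adjusted p = 0.00319) and that of ACTH against WKY was 2.74 and called (0.0118). The call was lost without WKY 1 (2.41, 0.0714), WKY 3 (2.57, 0.0742), SHR 2 (2.64, 0.0815) or SHR 3 (2.72, 0.0553), and SHR 1 and SHR 2 exceeded WKY 2, scanned on the same day, by 1.47 (0.386 with the day as a block).

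Eosinophil markers were dim in all groups. Prg2, the eosinophil major basic protein, averaged 19.9 in SHR, 33.3 in ACTH and 16.9 in WKY, and the eotaxin receptor Ccr3 averaged 14.2, 19.0 and 10.2 in the same groups. Both of these genes, the only eosinophil markers of the list on the array, stayed below 44 on all arrays. Ccl4, which attracts monocytes and T cells, was the other CC chemokine that passed, with 29.3, 45.5 and 37.9 in SHR, 31.4, 55.3 and 47.9 in ACTH and 27.3, 38.4 and 28.2 in WKY, and overlapped between all groups.

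**Figure D3:**
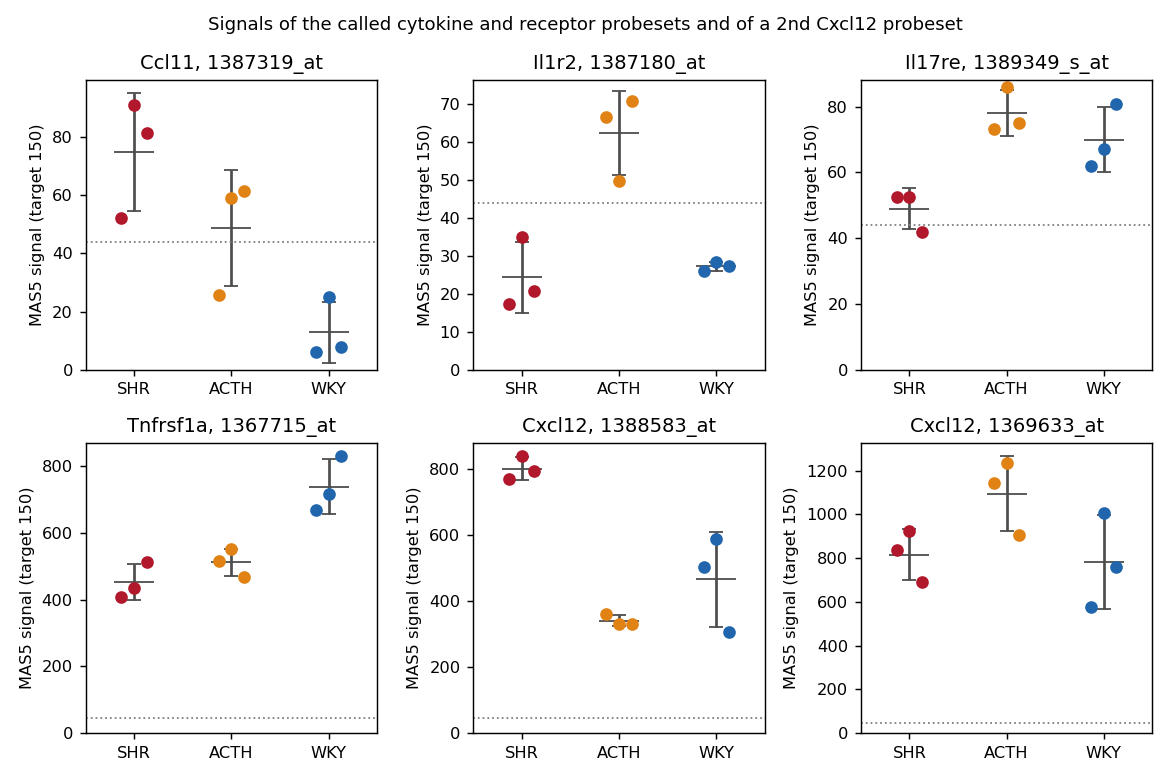
MAS5 signals of 5 called probesets and of a second Cxcl12 probeset on each array; points are arrays, bars group mean ± SD (n = 3), and the dotted line marks 44. Ccl11 lies at 52.2 or above in SHR and at 24.9 or below in WKY, Il1r2 at 49.9 or above in ACTH only, and the Cxcl12 probesets order the groups differently.

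Cxcl12 encodes SDF-1, which retains and recruits cells that bear Cxcr4 and is made by stromal cells of vessel walls. Probeset 1388583_at read 770, 839 and 794 in SHR, 361, 331 and 331 in ACTH and 501, 588 and 307 in WKY. All SHR arrays lay above all others. It was higher by 1.23 ± 0.21 in SHR against ACTH (adjusted p = 0.0118), with 0.83 ± 0.21 in SHR against WKY (0.084) and -0.40 ± 0.21 in ACTH against WKY (0.505). Within the day that SHR 3 shares with the ACTH arrays the difference was 1.22. The call was lost without ACTH 3 (1.21, 0.052) or SHR 2 (1.20, 0.0529).

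A second probeset of the gene gave another order. Probeset 1369633_at read 835, 923 and 690 in SHR, 1142, 1237 and 907 in ACTH and 578, 1005 and 761 in WKY. ACTH averaged highest here, and all groups overlapped in part, with -0.42 ± 0.22 in SHR against ACTH (adjusted p = 0.355) and 0.51 ± 0.22 in ACTH against WKY (0.366). The third Cxcl12 probeset, 1387655_at, did not pass. The call for SHR against ACTH therefore belongs to 1388583_at and not to both bright probesets of the gene, and which transcripts each one reads was not tested.

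Cx3cl1, or fractalkine, is a chemokine tethered to the endothelial membrane. It read 106, 136 and 153 in SHR, 197, 207 and 175 in ACTH and 151, 169 and 160 in WKY. ACTH arrays lay above both other groups, yet neither 0.27 ± 0.16 in ACTH against WKY (adjusted p = 0.568) nor -0.57 ± 0.16 in SHR against ACTH (0.0944) was called. Cxcl14, a chemokine of fibroblasts and epithelia, read 112, 128 and 144 in SHR, 162, 194 and 98.3 in ACTH and 46.4, 127 and 74.2 in WKY. Its WKY arrays spread over a wide range, and the changes of 0.74 ± 0.35 in SHR and 0.94 ± 0.35 in ACTH against WKY were not called (0.318 and 0.29). Cxcl16, a membrane chemokine that also binds oxidised lipoproteins, averaged 153 ± 22.6 in SHR, 169 ± 10.3 in ACTH and 159 ± 65.5 in WKY.

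No interleukin was called with limma in SHR against WKY, ACTH against WKY or SHR against ACTH (2.05%, 1.21% and 3.4% of all probesets were). Of 9 probesets, 1, 0 and 1 had an unadjusted p under 0.05 in the same order (16.4%, 12.5% and 17.2% of all). With 9 probesets these counts are no result about interleukins alone. Il33, a nuclear cytokine of endothelium and fibroblasts that is released on damage, read 246, 141 and 185 in SHR, 318, 383 and 307 in ACTH and 199, 350 and 233 in WKY with 1373970_at. SHR lay below every ACTH array (-0.85 ± 0.25, adjusted p = 0.0988). Its second probeset, 1389581_at, overlapped between these groups, with -0.21 ± 0.22 (0.691), and both probesets had like values for ACTH against WKY (0.40 ± 0.25 and 0.41 ± 0.22, neither called). Il1rl1, the Il33 receptor, did not pass, with group means of at most 13.2 in its 2 probesets.

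The remaining interleukins were dim or scattered. Il18bp, which neutralises interleukin-18, averaged 93.7 ± 24.7 in SHR, 67.7 ± 15.2 in ACTH and 75.7 ± 13.8 in WKY. Il12b, the subunit shared by interleukin-12 and interleukin-23, read 85.5, 71.5 and 73.0 in SHR, 73.3, 71.5 and 60.0 in ACTH and 54.0, 60.3 and 71.1 in WKY. SHR lay just above WKY for Il12b (0.32 ± 0.16, adjusted p = 0.354). Il16, a T cell attractant chosen for mention after its values were seen, read 77.9, 87.8 and 82.1 in SHR, 72.7, 76.1 and 49.1 in ACTH and 29.9, 90.9 and 39.3 in WKY, where WKY 2 exceeded all other arrays. Il12a, Il15, Il17b and Il23a had group means of 50.1 at most, and every pair of groups overlapped in each.

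Il1r2, the decoy receptor that binds interleukin-1 without signalling, was the member called in ACTH against WKY. It read 17.4, 34.8 and 20.6 in SHR, 66.5, 49.9 and 70.9 in ACTH and 26.0, 28.5 and 27.3 in WKY. Every ACTH array lay above 44 and every other array below it, so the probeset was tested only through the group in which it is high. It was the 1 member that passed through 1 group alone, while Ccl11 passed through SHR and ACTH without WKY. The log2 change was 1.18 ± 0.24 in ACTH against WKY (adjusted p = 0.0479) and -1.41 ± 0.24 in SHR against ACTH (0.0117). With signals below 44 raised to 44, the ACTH arteries remained at least 1.40-fold higher than either other group (adjusted p = 0.151 against WKY and 0.0984 for SHR against ACTH, neither called). SHR and WKY were both below the limit. SHR 3 lay 1.58 below the mean of the ACTH arrays of its scan day.

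The Il1r2 call against WKY stood in 2 of 9 fits with 1 array left out, those without SHR 1 and SHR 2, and the changes ranged over 1.08 to 1.33 (adjusted p 0.0157 to 0.192). For SHR against ACTH it was lost without ACTH 1 (-1.36, 0.0568) or ACTH 3 (-1.31, 0.0539). Il1r1, the signalling receptor for interleukin-1, did not pass with either of its probesets.

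Il17re, a receptor subunit for interleukin-17C, was lower in SHR than in ACTH arteries. Probeset 1389349_s_at read 52.6, 52.4 and 41.8 in SHR, 73.1, 86.0 and 75.2 in ACTH and 62.0, 67.2 and 80.9 in WKY. SHR lay below all other arrays, with -0.68 ± 0.16 against ACTH (adjusted p = 0.0468) and -0.52 ± 0.16 against WKY (0.145). The second probeset, 1373928_at, also placed SHR below ACTH, at 24.3, 27.8 and 22.3 in SHR against 36.7, 51.3 and 45.8 in ACTH (-0.84 ± 0.51, 0.444). WKY spread from 10.2 to 63.2 there. The call for 1389349_s_at was lost in 7 of 9 fits with 1 array left out, all but those without WKY 1 or WKY 3, with changes of -0.74 to -0.57 (adjusted p 0.0441 to 0.143). Il17ra, the common subunit of interleukin-17 receptors, averaged 141 ± 9.84 in SHR, 175 ± 27.7 in ACTH and 150 ± 46.4 in WKY and was not called.

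Il2rg, the gamma chain shared by receptors for interleukins 2, 4, 7 and 15 on lymphocytes and other cells, read 74.4, 96.6 and 87.7 in SHR, 37.0, 59.6 and 44.001 in ACTH and 35.9, 74.4 and 35.7 in WKY. SHR arrays lay above all ACTH arrays and above WKY 1 and WKY 3, and SHR 1 and WKY 2 were level. The changes were 0.91 ± 0.28 against WKY (adjusted p = 0.15) and 0.90 ± 0.28 against ACTH (0.131). Without WKY 2 the change against WKY was 1.26 and called (0.0187), and the change against ACTH, at 0.90, was called too (0.0374). Il4r, the receptor chain for interleukins 4 and 13, was not called either, with 38.9, 26.2 and 36.2 in SHR, 53.1, 41.6 and 46.2 in ACTH and 48.7, 63.7 and 40.4 in WKY (-0.59 ± 0.21 for SHR against WKY, adjusted p = 0.203).

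Il6st, or gp130, transduces signals of interleukin-6, interleukin-11 and their relatives, and all 3 of its probesets were bright. Probeset 1373140_at read 814, 526 and 589 in SHR, 505, 528 and 491 in ACTH and 406, 520 and 412 in WKY. SHR lay above WKY by 0.51 ± 0.18 (adjusted p = 0.202), and SHR 1 stood above its group. The same array was the highest of 1370957_at, at 1522 against at most 1004 on the other arrays, and of 1371926_at, at 1057. For these 2 probesets the SHR against WKY changes were 0.35 ± 0.20 and 0.09 ± 0.14, and none of the 3 was called. Il11ra1, the interleukin-11 receptor, averaged 606 ± 103 in SHR, 759 ± 8.75 in ACTH and 725 ± 70.2 in WKY, with SHR below ACTH on every array (-0.34 ± 0.16, 0.303). Il3ra, the interleukin-3 receptor chain, averaged 78.1 ± 32.6, 55.8 ± 6.50 and 64.8 ± 6.89 in SHR, ACTH and WKY, with SHR 3 alone at 114. Il6r, the ligand-binding partner of Il6st for interleukin-6, did not pass.

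Tnfrsf1a, the principal signalling receptor for TNF on most cells, fell in SHR. It read 409, 434 and 514 in SHR, 516, 551 and 469 in ACTH and 670, 716 and 830 in WKY. All WKY arrays lay above all SHR and ACTH arrays. The log2 change was -0.71 ± 0.15 in SHR against WKY (adjusted p = 0.0422), -0.53 ± 0.15 in ACTH against WKY (0.156) and -0.18 ± 0.15 in SHR against ACTH (0.588). SHR 1 and SHR 2 lay 0.76 below WKY 2 of the same scan day. The call was lost in 8 of 9 fits with 1 array left out, all but that without SHR 3, with changes of -0.80 to -0.62 (adjusted p 0.0402 to 0.136). Fitted beside the GAPDH ratio, the change was -0.55 (0.361). In bulk arteries fewer cells of a type and less RNA per cell cannot be told apart.

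The other TNF receptors that passed overlapped between all groups. Tnfrsf12a, the TWEAK receptor induced by growth factors, averaged 291 ± 55.3 in SHR, 303 ± 16.0 in ACTH and 244 ± 63.3 in WKY. Tnfrsf11b, or osteoprotegerin, a secreted decoy for RANK ligand, averaged 118 ± 35.9 in SHR, 111 ± 6.08 in ACTH and 97.1 ± 25.9 in WKY. Tnfrsf1b, the second TNF receptor, did not pass. Of the ligands, Tnfsf12 (TWEAK), which binds Tnfrsf12a, read 93.7, 107 and 153 in SHR, 174, 147 and 154 in ACTH and 153, 158 and 130 in WKY. Tnfsf13 (APRIL), a survival factor for plasma cells, averaged 64.6 ± 15.7 in SHR, 92.3 ± 26.3 in ACTH and 62.7 ± 18.6 in WKY. Neither ligand was called.

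Tnfaip1, which encodes an adaptor of a ubiquitin ligase, separated all 3 groups without being called. It read 794, 832 and 811 in SHR, 545, 658 and 602 in ACTH and 719, 769 and 726 in WKY. SHR was highest and ACTH lowest on every array, with 0.44 ± 0.13 in SHR against ACTH (adjusted p = 0.105), 0.14 ± 0.13 in SHR against WKY (0.629) and -0.30 ± 0.13 in ACTH against WKY (0.379). Tnfaip8, an inhibitor of apoptosis, and Tnfaip2 (1388773_at) overlapped between all groups, with means of 91.6 to 110 and of 46.5 to 54.7. Tnfaip6, a hyaluronan-binding protein, did not pass.

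Genes that act with the members were counted from lists. Among JAK, STAT and SOCS genes 10 of 18 on the array passed, and 1 was called in SHR against WKY: Stat3, which carries signals of Il6st, fell. Stat3 probeset 1370224_at read 283, 195 and 172 in SHR, 532, 502 and 553 in ACTH and 687, 726 and 593 in WKY, and no SHR array reached the others (-1.65 ± 0.19 against WKY, adjusted p = 0.00154, and -1.32 ± 0.19 against ACTH, 0.00494). The second Stat3 probeset, 1371781_at, was not called (-0.33 ± 0.21 for SHR against WKY, 0.454). The feedback inhibitors Socs1, Socs2, Socs3 and Cish did not pass. Of NF-kappaB genes and adaptors 19 of 22 passed, and Birc2, a ubiquitin ligase of TNF receptor complexes, was the 1 called, higher in SHR against WKY (0.93 ± 0.19, adjusted p = 0.0365). Of leukocyte adhesion genes 6 of 9 passed, and Icam2 (1390310_at), an endothelial ligand of leukocyte integrins, was the 1 called in SHR against WKY, with a change of -1.73 ± 0.31 (0.0192). The other Icam2 probeset, 1389235_at, was not called and had a change above 0 (0.44 ± 0.16, 0.226). Vcam1 (-0.01 ± 0.15) and Icam1 (-0.23 ± 0.16), which hold leukocytes on the endothelium, were not called. Endothelial markers had a summed signal of 1154 to 1546 in SHR, 1496 to 1761 in ACTH and 1626 to 1935 in WKY over 6 genes. The sum follows Vwf, which averaged 515 in SHR, 919 in ACTH and 1217 in WKY. Vwf was called lower in SHR against WKY (adjusted p = 0.0118), while 5 of the 6 genes had changes above 0 (median 0.42). Flt1 (1377113_at) was called higher (0.0044), at 54.3, 58.5 and 72.4 in SHR and below 44 on every other array. This Flt1 probeset was thus tested only through the group in which it is high. The Flt1 probesets 1369087_at and 1370492_a_at did not pass. The part of endothelial content in these values was not tested. The same Icam2 probeset also was the 1 adhesion gene called in SHR against ACTH, and the same Stat3 probeset the 1 of its list. In ACTH against WKY limma called 0 probesets of these 3 lists, beside 1.21% of all probesets. There 3 of 13 JAK-STAT, 4 of 19 NF-kappaB and 1 of 9 adhesion probesets had an unadjusted p under 0.05 (12.5% of all). In the same order 3, 3 and 4 had one in SHR against WKY (16.4% of all) and 2, 5 and 3 in SHR against ACTH (17.2%). The calls of these lists stand beside 2.05% of all probesets in SHR against WKY and 3.4% in SHR against ACTH. The median log2 changes in SHR against WKY were -0.20, -0.059 and 0.090 in the same order of lists, and in ACTH against WKY 0.025, 0.16 and 0.24.

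Of 33 cytokines and TNF family genes on the array that are named otherwise, 15 passed. Limma called 1 of their 15 probesets in ACTH against WKY, beside 1.21% of all probesets. It called 0 in SHR against WKY and in SHR against ACTH (2.05% and 3.4% of all). Pf4, a CXC chemokine of platelets and macrophages, was the 1 called, higher in ACTH against WKY: it read 167, 158 and 146 in SHR, 342, 423 and 245 in ACTH and 57.2, 140 and 84.8 in WKY (1.90 ± 0.30, adjusted p = 0.0151). ACTH lay above all other arrays, and SHR above all WKY arrays (0.84 ± 0.30, 0.203). Ackr3, a scavenger of Cxcl12, read 565, 590 and 499 in SHR, 501, 445 and 548 in ACTH and 400, 343 and 376 in WKY. Both models lay above WKY for Ackr3, with 0.56 ± 0.14 (0.0804) in SHR and 0.41 ± 0.14 (0.243) in ACTH.

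Macrophage marker signals were uneven between arrays. Of 9 such genes on the array 8 passed, and all 8 had log2 changes above 0 in SHR and in ACTH against WKY. In SHR against WKY the median was 0.83, with 0 called with limma (2.05% of all probesets). There 2 had an unadjusted p under 0.05 (16.4% of all). In ACTH against WKY the median was 1.35, with C1qc called (1.21% of all) and 7 at an unadjusted p under 0.05 (12.5%). In SHR against ACTH 7 of the 8 lay below 0 (median -0.60), and 2 had an unadjusted p under 0.05 (17.2%). Cd14 was called lower there (-0.83 ± 0.18, adjusted p = 0.0375, beside 3.4% of all called), with 0.04 ± 0.18 in SHR against WKY. The summed signal of the 9 genes was 1085 to 1657 in SHR, 1632 to 2435 in ACTH and 464 to 1408 in WKY, with WKY 2 at 1408 and WKY 1 and WKY 3 at 464 and 605. The same WKY 2 array was the highest WKY array for 20 of the 35 tested member probesets (57.1%, against 34.9% of all 9125), among them Ccl11, Il2rg, Il16 and Cxcl14. The marker sum reached its highest values in ACTH. Cxcl14, Il1r2 and Pf4 also averaged highest in ACTH, while Ccl11, Il2rg and Il16 averaged highest in SHR. Without WKY 2, 4 members were called in SHR against WKY in place of 2: Ccl11, Cxcl12 1388583_at, Il16 and Il2rg, all higher, and Tnfrsf1a was no longer among them (adjusted p = 0.0693). The part of macrophage content in these results was not tested.

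**Figure D4:**
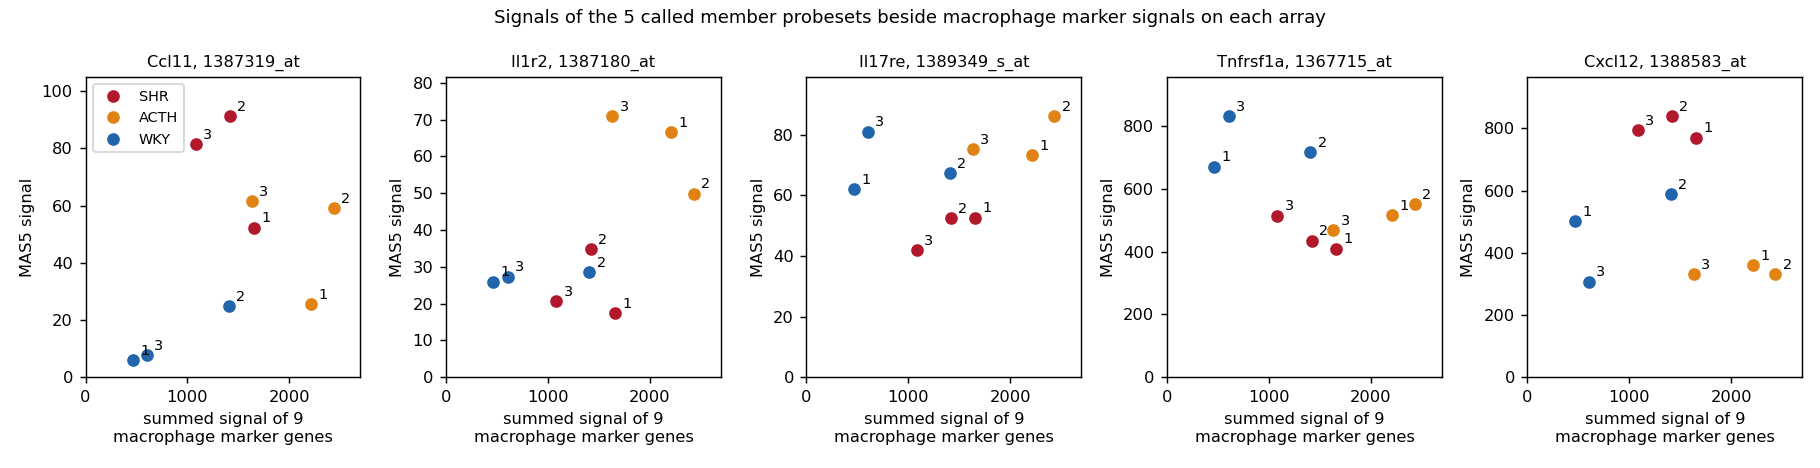
Signals of the 5 called member probesets (MAS5, linear axis from 0) against the summed signal of 9 macrophage marker genes on each array; numbers are replicates within SHR, ACTH and WKY. WKY 2, at a sum of 1408, has the highest WKY signal of Ccl11, Il1r2 and Cxcl12, and WKY 3, at 605, that of Il17re and Tnfrsf1a.

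Markers of other leukocytes were scarce. Of mast cell genes 2 of 7 passed, the proteases Cma1 and Tpsb2, while Kit, Fcer1a and Cpa3 did not. The median changes of the 2 genes were 1.65 in SHR and 1.92 in ACTH against WKY, and neither gene was called. Cma1 read 49.3, 55.4 and 21.7 in SHR, 41.6, 118 and 8.79 in ACTH and 7.40, 15.4 and 5.56 in WKY. Tpsb2 read 13.1, 45.1 and 12.5 in WKY, so both medians rest largely on WKY signals below 44. Of T cell genes 1 of 8 passed (Lck), Cd3e, Cd3d and Cd3g did not, and the 1 B cell gene and the 2 neutrophil genes on the array did not pass either.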

How the data were processed

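RNA of rat saphenous artery branches was amplified in a double round of labelling and hybridised to 9 RAE230A arrays (SHR, ACTH and WKY, 3 each, each a pool of 2 to 3 rats). Per the labels and methods, the authors computed 1 intensity per probeset with MAS5, scaled to a target of 150; the deposited values are linear, and detection calls were not used here. Controls (57 probesets) were left out. Probesets with a third-highest signal of at least 44 were kept (9125), and log2 signals were fitted to the 3 groups with limma 3.58.1 in R 4.3.3 (lmFit and eBayes, 6 residual and 4.42 prior degrees of freedom). P-values are two-sided and adjusted by the Benjamini-Hochberg method over the kept probesets. The number of arrays, 3 per group, limits the precision, and low signals are the least certain.

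Of the other probesets 12783 carry 1 symbol in the platform annotation, 312 several and 2771 none; 12754 identifiers matched the RefSeq table (GRCr8), which changed 0 symbols. Promoter letters come from RefSeq. Named probesets are those called, the 3 brightest genes of each role, the 4 lowest p-values in each direction of each comparison, 8 genes by name (Ccl11, Ccl2, Cxcl12, Il6, Il1b, Tnf, Il6st, Tnfrsf1a) and other probesets of these genes; further genes are mentioned for context by their values. The members and lists were chosen with earlier results of these data known. The fit was tested on simulated data. Alternatives were other filters, normalizations, variance models, covariates, blocks, tests and leaving out each array. Medians over genes used the brightest kept probeset per gene. Figures were drawn with matplotlib 3.10.9, and tables made with pandas 2.3.3 and scipy 1.17.1 in Python 3.11.15.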

Additional observations from a re-analysis of the deposited data

Results flagged for a closer look

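For 3 probesets the SHR against WKY change differed from the ACTH against WKY change, tested as the SHR against ACTH contrast of the same limma fit, in which the WKY arrays enter only through the error. Cxcl12 1388583_at differed by 1.23 (adjusted p = 0.0118), with 0.83 in SHR and -0.40 in ACTH against WKY. The other bright Cxcl12 probeset, 1369633_at, gave -0.42 for SHR against ACTH and was not called (0.355). Il17re 1389349_s_at differed by -0.68 (adjusted p = 0.0468), with -0.52 in SHR and 0.16 in ACTH against WKY. Il1r2 differed by -1.41 (adjusted p = 0.0117), with -0.23 in SHR and 1.18 in ACTH against WKY. Its probeset was tested only through ACTH, the group in which it is high. With signals below 44 raised to 44, the Il1r2 difference was -0.49 and not called (0.0984).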

How the results depend on the processing

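The count of called members depended on the processing. Except for the F test, no share of all probesets stands beside the counts below, so they are no result about the members alone. The methods' test means t-tests without moderation, called here at an adjusted p under 0.05, while the study states p-value cutoffs and no adjustment. For SHR against WKY (2 in the report) the count was 0 without a filter and with the scan day block. It was also 0 with the GAPDH covariate and with the methods' test. It was 1 with signals below 44 raised to 44, with array weights, with the replicate number as a block and with the 2 groups alone. With each array left out it was 0 to 4. For ACTH against WKY (1) it was 0 without a filter, with means of 100 or more, after quantile normalization, with signals raised to 44, with an intensity trend, with the GAPDH covariate, with the scan day block and with the methods' test, and 0 to 1 with each array left out. For SHR against ACTH (3) it was 0 without a filter, with the scan day block and with the methods' test, 1 with means of 100 or more, 8 with array weights, and 0 to 3 with each array left out. The cause was not tested, except that this last filter leaves out Il1r2 and Il17re by construction. The scan day block gave median changes of -0.083 (SHR against WKY) and -0.010 (ACTH against WKY), median centring gave -0.078 for SHR against ACTH, and with each array left out the 3 medians ranged over 0.041 to 0.13, 0.14 to 0.29 and -0.19 to -0.089. Named probesets kept their direction and side of the threshold in 435 of 517 values, weakened in 67, passed in 12 and reversed in 3: Tnfsf12 in SHR against WKY (0.010) and Il3ra in ACTH against WKY (0.27), both with the GAPDH covariate, and Cxcl14 in ACTH against WKY (-0.077) with the scan day block. The methods' F test without moderation gave 6 members at a p of 0.02 or less (9.65% of all probesets) and 0 at 0.001 (1.59% of all). With group means removed, same-numbered arrays of different groups correlated at -0.07 to 0.13 and differently numbered ones at -0.16 to 0.14. The replicate numbers thus showed no pairing of the arrays. With the replicate block the member called in ACTH against WKY was Ccl11 (2.11, adjusted p = 0.0213) in place of Il1r2 (0.083). The 3 called in SHR against ACTH with that block were Cxcl12, Il1r2 and Il2rg. Leaving out 1 array leaves 2 in its group, and signals near or below 44 limit what can be told.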
